A study of Homo sapiens with 51 samples.

Results

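The 10 genes described here are members of the Notch pathway. They comprise 3 receptors (NOTCH1, NOTCH2 and NOTCH3), 4 ligands (DLL1, DLL3, DLL4 and JAG1) and 3 transcriptional targets (HES1, HEY1 and HEY2). They were chosen by name and by no rule on a measured value, but with earlier results of these data known. They were found in the deposited RNA-seq count table by their Ensembl identifiers, 10 of 58051 gene rows. All 10 passed the filter on low counts, which left 19603 genes to test. DLL4 passed at under 1 CPM in every library. NOTCH4, JAG2 and further pathway genes were taken from separate lists.

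H1 cells, a long-established line of human embryonic stem cells, gave 51 libraries in 17 groups of 3. In the BMP4 groups, cells received BMP4 at 50 ng/mL with no Activin A, and in the Activin+BMP4 groups they received Activin A at 100 ng/mL with BMP4 at 10 ng/mL, each for 1, 6, 12, 24, 36, 48, 72 or 96 h. The untreated group was kept in mTeSR, the maintenance medium. All treated groups were also moved to TeSR E5 containing insulin, FGF2 and LY29004 (spelled as in the labels). The 2 treatments therefore differ in Activin and in the BMP4 dose together, and these cannot be told apart. A difference from untreated cells also carries the change of medium and the added insulin, FGF2 and LY29004, which no group here separates from the ligands. Nothing in the labels says that the 3 libraries of a group came from separate cultures, and the p-values therefore reflect only library-to-library spread, which may be technical.

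Notch receptors sit in the cell membrane and bind Delta-like and Jagged ligands on neighbouring cells. Ligand binding leads to cleavage of the receptor, and its released intracellular part joins the DNA-binding protein RBPJ and a Mastermind-like co-activator to switch on genes such as those of the HES and HEY repressor families. In the embryo the pathway is known for the segmentation clock of the presomitic mesoderm, for arterial endothelium and heart, and for keeping neighbouring cells in different states.

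Library totals ran from 22.8 to 30.4 M counts. In 3 groups 1 library stood apart from the other 2: replicate 1 of BMP4 at 12 h, replicate 2 of Activin+BMP4 at 48 h and replicate 3 of Activin+BMP4 at 96 h. In the untreated libraries all 8 markers of pluripotent stem cells were above 1 CPM, as in every treated group, with a summed level of 8180 to 8390 CPM. That sum was 3590 to 3790 CPM in the BMP4 96 h libraries and 4790 to 5040 CPM in the Activin+BMP4 96 h libraries. The largest part of this gap was TDGF1, at 175 CPM with BMP4, against 829 CPM with Activin+BMP4 and 834 CPM in untreated cells. SOX2 alone went the other way, at 152 CPM with BMP4, against 132 CPM with Activin+BMP4. In a bulk sample, fewer cells of a type and less RNA per cell cannot be told apart.

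Levels below are CPM, counts scaled to a common library size with TMM factors, as mean ± SD over 3 libraries unless single libraries are named. A gene is called where edgeR's quasi-likelihood test gave an adjusted p under 0.05 and the log2 fold change was at least 1 in size, which is 2-fold. Fold changes of the conditions are BMP4 over Activin+BMP4.

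The receptors and JAG1 were well expressed throughout and moved little, whereas DLL1, DLL3, HEY1 and, to a smaller extent, HES1 and HEY2 moved by several fold. Per kilobase of exon, the median over the 17 groups was 22.1 CPM for NOTCH3, 9.98 for NOTCH2, 9.40 for HES1, 7.76 for NOTCH1, 5.05 for JAG1 and 4.36 for HEY2. On the same scale it was 2.06 for HEY1, 0.601 for DLL3, 0.594 for DLL1 and 0.0179 for DLL4. The highest group mean was 68.8 times the lowest for DLL3, 19.0 times for DLL1 and 13.6 times for HEY1. It was 3.46 times for HEY2, 3.44 times for HES1 and between 1.46 and 1.92 times for JAG1 and the 3 receptors.

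**Figure D1:**
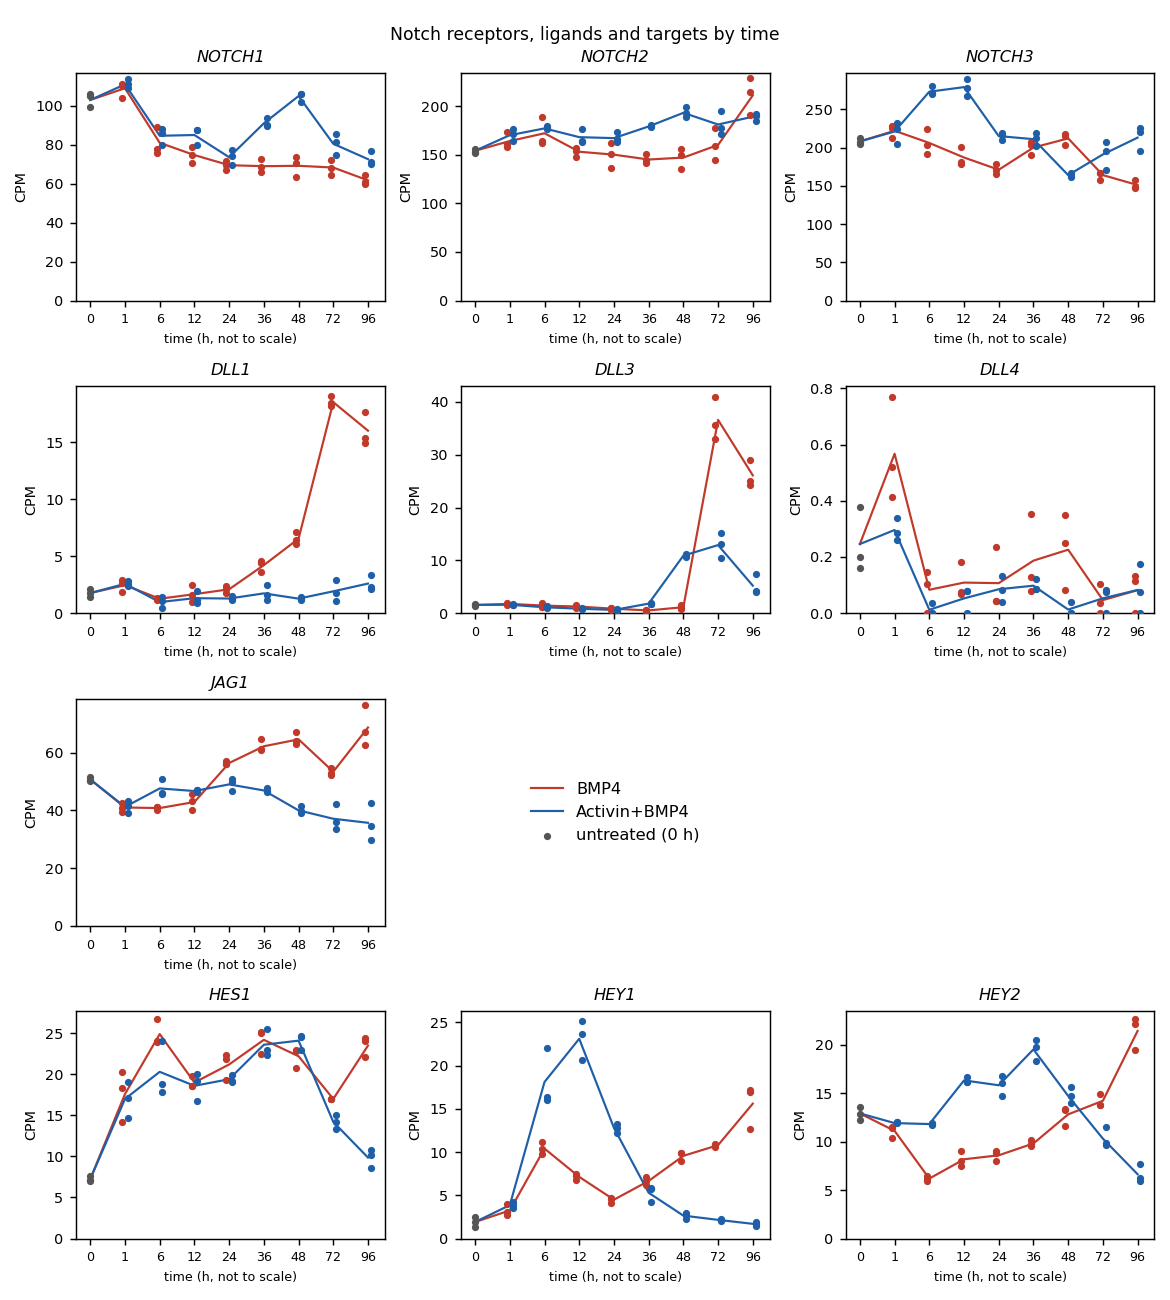
Level of each of the 10 genes (CPM, a scale of its own in each panel) against hours of treatment, with single libraries as points and the mean of 3 libraries as a line, for BMP4, Activin+BMP4 and the untreated cells at 0 h. DLL1 and DLL3 reach their highest group means under BMP4 at 72 h (18.5 and 36.6 CPM), and HEY1 peaks under Activin+BMP4 at 12 h (23.1 CPM) but climbs late under BMP4 (15.6 CPM at 96 h).

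No receptor passed 2-fold in any of the 8 comparisons of BMP4 with Activin+BMP4, nor against untreated cells at any time. NOTCH1 had its largest difference at 48 h, with 63.3, 70.4 and 73.9 CPM in the BMP4 libraries and 106, 102 and 106 CPM in the Activin+BMP4 libraries. The groups did not overlap, and the log2 fold change was -0.60 ± 0.06 (SE; edgeR quasi-likelihood adjusted p = 1.7e-11). Under BMP4 NOTCH1 stood at 61.7 ± 2.49 CPM at 96 h, its lowest group mean, against 103 CPM in untreated cells, a log2 fold change of -0.75 ± 0.06. Under Activin+BMP4 it was at 73.6 CPM at 24 h and at 105 CPM at 48 h, a level within the spread of untreated cells (log2 fold change 0.02 ± 0.06), before 72.6 CPM at 96 h.

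NOTCH3, the receptor with the highest level per kilobase, differed most at 12 h, with 201, 181 and 178 CPM in the BMP4 libraries and 268, 290 and 278 CPM in the Activin+BMP4 libraries. All BMP4 libraries lay below all Activin+BMP4 libraries, at a log2 fold change of -0.58 ± 0.06 (edgeR quasi-likelihood adjusted p = 1.55e-10). At 48 h its direction was the opposite, 212 ± 7.66 CPM in BMP4 cells, against 164 ± 3.42 CPM in Activin+BMP4 cells (log2 fold change 0.37 ± 0.06). At 96 h it was again lower with BMP4, 151 ± 6.37 against 213 ± 16.0 CPM, a log2 fold change of -0.50 ± 0.06. NOTCH2 stayed between 145 and 211 CPM. Ordered by mean, all 16 neighbouring pairs of the 17 NOTCH2 groups overlapped in their libraries, as did 14 of 16 for NOTCH1 and 13 of 16 for NOTCH3. For the other genes 15 of 16 such pairs overlapped for DLL4, 14 for HES1, and 12 each for DLL1, DLL3, JAG1, HEY1 and HEY2. Sorting by mean puts close groups side by side, which favours overlap, and no share over all genes was taken. The counts do not measure how far a gene moved: JAG1, with a highest mean 1.92 times its lowest, had the same count as DLL3, at 68.8 times.

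Among the ligands, DLL1, a Delta-like ligand that activates receptors on neighbouring cells, rose late in BMP4 cells and was not called against untreated cells at any time in Activin+BMP4 cells. The BMP4 libraries held 6.05, 7.08 and 6.45 CPM at 48 h, 19.0, 18.2 and 18.4 CPM at 72 h, and 14.9, 15.4 and 17.6 CPM at 96 h. The Activin+BMP4 libraries held 1.45, 1.12 and 1.28 CPM at 48 h, 1.06, 1.81 and 2.88 CPM at 72 h, and 2.15, 2.34 and 3.31 CPM at 96 h. The conditions did not overlap at these times, and the BMP4 groups at 72, 96, 48 and 36 h were the 4 highest of the 17. For 36, 48, 72 and 96 h, in this order, the log2 fold changes were 1.28 ± 0.27, 2.34 ± 0.27, 3.25 ± 0.25 and 2.61 ± 0.23 (edgeR quasi-likelihood adjusted p = 2.33e-04, 1.3e-09, 8.85e-15 and 6.55e-13). Before 36 h no comparison of the conditions passed, with log2 fold changes between -0.07 and 0.70. In untreated cells DLL1 was at 1.77 ± 0.346 CPM.

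DLL3, a divergent Delta-like protein that does not activate receptors on neighbouring cells and is known for its part in somite formation, came up first in Activin+BMP4 cells and then higher in BMP4 cells. At 48 h the BMP4 libraries held 1.51, 0.896 and 1.03 CPM and the Activin+BMP4 libraries 10.9, 11.2 and 10.7 CPM. At 72 h the BMP4 libraries held 35.7, 41.0 and 33.0 CPM and the Activin+BMP4 libraries 10.5, 13.1 and 15.1 CPM. The direction between the conditions thus turned round within a day, with no overlap on either day. Over the same 4 times the log2 fold changes were -1.75 ± 0.30, -3.24 ± 0.21, 1.5 ± 0.15 and 2.32 ± 0.16 (edgeR quasi-likelihood adjusted p = 1.09e-05, 4.44e-17, 2.4e-11 and 2.23e-16). Within BMP4 cells the step between 48 and 72 h was a log2 fold change of 4.98 ± 0.20. At 96 h Activin+BMP4 cells were back at 5.22 ± 1.96 CPM, and there the library that stood apart held 7.48 CPM against 4 and 4.18 CPM in the other libraries.

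JAG1, a Jagged ligand, was higher with BMP4 at each time after 12 h without reaching 2-fold. At 96 h the BMP4 libraries held 76.4, 67.0 and 62.5 CPM and the Activin+BMP4 libraries 29.8, 34.7 and 42.7 CPM. The groups did not overlap, at a log2 fold change of 0.94 ± 0.07 (edgeR quasi-likelihood adjusted p = 1.37e-14). The highest Activin+BMP4 value was that of the library that stood apart, and without it the log2 fold change was 1.08 and the gene was called. From 24 to 72 h the log2 fold changes were 0.20, 0.41, 0.69 and 0.52. Relative to untreated cells (50.7 CPM) JAG1 lay on both sides at 96 h, with a log2 fold change of 0.44 ± 0.07 under BMP4 and -0.50 ± 0.08 under Activin+BMP4.

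DLL4, the Delta-like ligand of arterial endothelium, was close to the limit of detection. Its highest library, BMP4 1 h replicate 1, held 19 counts (0.770 CPM), and 10 of 51 libraries held 0 counts. At 1 h the BMP4 libraries held 19, 12 and 10 counts and the Activin+BMP4 libraries 6, 7 and 9 counts, a difference that did not pass (log2 fold change 0.93 ± 0.61). The untreated libraries held 5, 4 and 9 counts. At 48 h it was called higher with BMP4 (edgeR quasi-likelihood adjusted p = 0.00719), on 17 counts over the BMP4 libraries and 1 count over the Activin+BMP4 libraries. That is a ratio of 17.4 with an exact 95% counting interval of 2.72 to 725, which covers counting error only. Because a low gene that passed only through its higher groups had to differ somewhere, these counts are given as a description.

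Of the endothelial list, all 8 markers were detected in every group, but its sum (768 to 1000 CPM in BMP4 96 h, 210 to 219 CPM in Activin+BMP4 96 h and 291 to 307 CPM in untreated libraries) was mainly KDR and TEK, which other early cells also express. At 96 h KDR averaged 851 CPM with BMP4, against 188 CPM with Activin+BMP4, and TEK 68.3 CPM, against 23.5 CPM. CDH5, a defining endothelial cadherin, was at 0.605 CPM in BMP4 cells, against 0.314 CPM in Activin+BMP4 cells, at 96 h. PECAM1 was at 0.257 and 0.335 CPM in these same groups and did not pass the filter on low counts. SOX18 and ESAM, 2 further endothelial markers, were lower in mean with BMP4, at 0.238 and 0.168 CPM, against 1.01 and 0.431 CPM with Activin+BMP4. Of the 8 markers 2 were above 1 CPM with BMP4, 3 with Activin+BMP4 and 4 in untreated cells. The part of these cells in the DLL4, HEY1 and HEY2 levels was not tested.

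**Figure D2:**
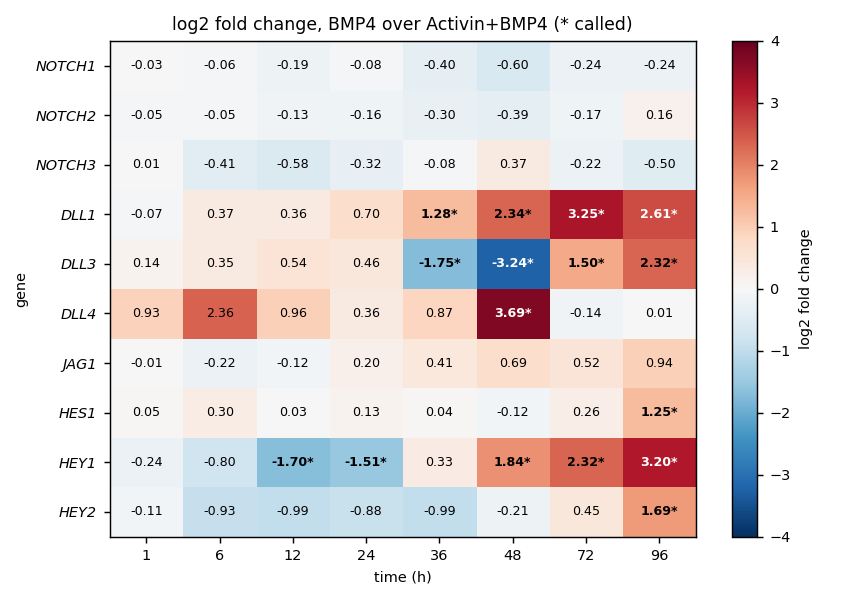
Log2 fold change of BMP4 over Activin+BMP4 at each of the 8 times (horizontal axis, h) for the receptors, ligands and targets. The receptors stay within 2-fold, DLL3 goes from -3.24 at 48 h to 1.5 at 72 h, and HEY1 goes from -1.70 at 12 h to 3.20 at 96 h.

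HES1, a repressor of the HES family and the pathway's classical direct target, was higher than in untreated cells from the first hour in both conditions. At 1 h the BMP4 libraries held 20.3, 14.2 and 18.3 CPM and the Activin+BMP4 libraries 17.1, 14.7 and 19.1 CPM, against 7.11, 7.64 and 6.96 CPM in untreated libraries. Both treated groups lay above all untreated libraries and overlapped each other. The log2 fold change over untreated cells was 1.28 ± 0.11 for BMP4 and 1.23 ± 0.11 for Activin+BMP4 (edgeR quasi-likelihood adjusted p = 2.32e-11 and 8.02e-11), and these comparisons share the 3 untreated libraries. HES1 was called against untreated cells at 8 of 8 times under BMP4 and at 6 of 8 times under Activin+BMP4, where it was at 14.2 CPM at 72 h and 9.86 CPM at 96 h. Until 48 h the conditions did not pass the test of their difference, with log2 fold changes of -0.12 to 0.30. At 96 h the BMP4 libraries held 24.4, 24.0 and 22.1 CPM and the Activin+BMP4 libraries 10.2, 8.57 and 10.8 CPM. The groups were far from overlapping there, at a log2 fold change of 1.25 ± 0.10 (edgeR quasi-likelihood adjusted p = 3.9e-14).

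Promoter stretches of 2 genes from RefSeq's annotation of GRCh38.p14 are shown because they carry TGGGAA, the core of the sequence that RBPJ binds, next to genes whose RNA moved. The RefSeq promoter table matched 7 of the 10 genes (not DLL1, DLL3 or HEY1), and the 250 bases before the start of each were searched on both strands. HES1 (chr3:194136014-194136133, plus strand) has 2 matches, which begin 84 and 70 bases before the start. HEY2 (chr6:125749382-125749501, plus strand) has 1 match, on the opposite strand, where it reads TTCCCA. Capitals mark the matches.
HES1: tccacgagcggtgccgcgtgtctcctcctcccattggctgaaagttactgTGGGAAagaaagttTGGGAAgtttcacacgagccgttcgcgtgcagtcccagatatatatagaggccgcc
HEY2: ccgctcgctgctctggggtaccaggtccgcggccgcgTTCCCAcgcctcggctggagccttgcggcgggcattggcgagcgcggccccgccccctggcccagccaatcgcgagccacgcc
At least 1 match was present in 20.8% of 35116 promoters and 2 or more in 2.9%. The windows of NOTCH1, NOTCH2, NOTCH3, DLL4 and JAG1 held none. CACNAG, a core of sites bound by HES repressors, was present in 32% of promoters, 3 times in the HES1 window and once in that of NOTCH3. These are matches of letters in a window, and binding was not measured.

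HEY1, a HEY-family repressor known from somites, vessels and heart, had an early peak in both conditions, higher with Activin+BMP4, and a second rise with BMP4. At 12 h the BMP4 libraries held 7.43, 6.76 and 7.19 CPM and the Activin+BMP4 libraries 23.7, 25.1 and 20.6 CPM. At 96 h the BMP4 libraries held 12.7, 17.2 and 17 CPM and the Activin+BMP4 libraries 1.48, 1.97 and 1.64 CPM, against 1.89, 2.49 and 1.34 CPM in untreated libraries. The conditions were apart at both times and in opposite directions, and the Activin+BMP4 96 h libraries overlapped the untreated ones. The log2 fold changes were -0.80 ± 0.12, -1.70 ± 0.13 and -1.51 ± 0.14 for 6, 12 and 24 h. The difference did not pass at 36 h (0.33 ± 0.14). For 48, 72 and 96 h they were 1.84 ± 0.15, 2.32 ± 0.15 and 3.20 ± 0.15, the last with an edgeR quasi-likelihood adjusted p of 9.72e-22. Against untreated cells HEY1 was called at 7 of 8 times under BMP4, from 6 h on, and at 5 of 8 times under Activin+BMP4, from 1 to 36 h. The 1 h call sat at the threshold (log2 fold change 1.01 ± 0.18), and it was lost without Activin+BMP4 1 h replicate 3 (0.95) or without untreated replicate 1 (1.00) or 3 (0.81).

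At 12 h, when HEY1 was at its Activin+BMP4 peak, 3 of 5 primitive streak markers were above 1 CPM in that condition, with a sum of 12.8 to 16.6 CPM, against 1 of 5 and a sum of 2.96 to 3.82 CPM with BMP4. At 24 h, when HEY1 was already lower, that sum was 324 to 344 CPM with Activin+BMP4 and 16.0 to 19.1 CPM with BMP4. No streak marker was at 0 in these groups. The part of streak cells in the HEY1 levels was not tested.

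HEY2, the related repressor known from heart and artery, was lower with BMP4 than with Activin+BMP4 between 6 and 48 h and higher at 72 and 96 h. At 6 h the BMP4 libraries held 5.90, 6.15 and 6.48 CPM and the Activin+BMP4 libraries 11.7, 11.9 and 11.8 CPM, against 12.8, 12.2 and 13.6 CPM in untreated libraries. BMP4 lay apart from both, and its log2 fold change over untreated cells was -1.06 ± 0.08 (edgeR quasi-likelihood adjusted p = 1.39e-13), the only HEY2 call against untreated cells. Between the conditions the log2 fold changes were -0.93, -0.99, -0.88 and -0.99 from 6 to 36 h, each just short of 2-fold. The 12 h value was -1.07, and called, without BMP4 12 h replicate 1, the library that stood apart. At 96 h the BMP4 libraries held 22.6, 22.1 and 19.4 CPM and the Activin+BMP4 libraries 6.26, 5.96 and 7.66 CPM. The groups did not overlap, at a log2 fold change of 1.69 ± 0.08 (edgeR quasi-likelihood adjusted p = 9.72e-22). Without Activin+BMP4 96 h replicate 3, the difference of Activin+BMP4 from untreated cells at 96 h was -1.08 in place of -0.96 and was called.

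Counted over the 10 genes, none was called between the conditions at 1 h (0.0051% of the 19603 tested genes) or at 6 h (0.505%). The count was 1 at both 12 h (1.42% of all genes) and 24 h (4.01%). For 36, 48, 72 and 96 h the counts were 2 (5.58%), 4 (9.25%; 3 without DLL4), 3 (9.63%) and 5 (15.6%). With no fold threshold, edgeR's quasi-likelihood test passed 0 of the 10 genes at 1 h (0.0102% of all genes), 3 at 6 h (4.02%), 4 at 12 h (9.02%) and 5 at 24 h (29.3%). DESeq2 also called 0 at 1 h and 0 at 6 h, and at an unadjusted p under 0.05 edgeR's test passed 0 at 1 h and 5 at 6 h. With no fold threshold it then passed 6 genes (27.7% of all) for 36 h, 9 (41%) for 48 h, 9 (39.5%) for 72 h and 9 (54.4%) for 96 h. The 12 h count was 2 without BMP4 12 h replicate 1 or Activin+BMP4 12 h replicate 3. At 96 h all 5 were higher with BMP4 (7.62% of all genes were called higher), namely DLL1, DLL3, HES1, HEY1 and HEY2. The median log2 fold change of the 10 genes was 1.10 at 96 h, beside 0.00 over all genes, and between -0.12 and 0.36 at the other times. Over all 8 times, 16 of 80 comparisons were called in 6 genes, beside 5.75% of those of all genes. Of these 12 were higher with BMP4 (2.98% of all) and 4 lower (2.77%). Without DLL4, 15 of 72 were called, 11 higher and 4 lower.

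Against untreated cells, 23 of 72 comparisons of the 9 genes other than DLL4 were called under BMP4 (9.97% over all genes) and 15 of 72 under Activin+BMP4 (11.9% over all genes). Of the BMP4 calls 21 were higher (6.56% over all genes) and 2 lower (3.4%), and of the Activin+BMP4 calls 14 were higher (7.18%) and 1 lower (4.72%). Both sets share the untreated libraries. Of steps between neighbouring times, 5 of 63 were called for these 9 genes under BMP4 (3.17% over all genes) and 6 of 63 under Activin+BMP4 (3.79%). DLL4, at few counts, would add 1 call under BMP4 and 3 under Activin+BMP4 against untreated cells, all lower, and 1 lower step in each condition. The change of the BMP4 to Activin+BMP4 difference between 24 and 96 h was itself tested, and 5 of the 10 genes were called, all toward higher with BMP4 at 96 h (13.6% of all genes were called in either direction and 5.73% in this one). It was largest for HEY1, at 4.70 ± 0.21 on the log2 scale.

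Over the 17 group means the members did not move as a block. Pearson correlations of their log2 levels ran from -0.63 (NOTCH3 with DLL3) to 0.60 (DLL1 with JAG1, and NOTCH2 with DLL3), with 0.58 for HES1 with HEY1. These describe means from the same libraries and carry no test. Among 11332 genes, DLL1 was most like KANK1 (r = 0.967), ADAMTSL4 (0.958) and PI4KA (0.955). DLL3 was most like PDGFRA (0.962), ANPEP (0.95) and ALPK2 (0.943). HEY1 was most like EAPP (0.861), CDH6 (0.86) and PDZD2 (0.851). The DLL4 values, SMIM3 (0.915), B4GALNT4 (0.875) and PARD3B (0.864), rest on very few counts.

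DLL1 and DLL3 rose late in BMP4 cells, as did genes of the presomitic mesoderm. TBX6, a T-box factor of paraxial mesoderm, was at 30.6 ± 0.78 CPM in BMP4 cells, against 6.56 ± 1.90 CPM in Activin+BMP4 cells, at 72 h. At 48 h the order was the other way, 2.99 ± 0.501 against 8.11 ± 0.265 CPM. MESP1, a factor of nascent mesoderm, likewise stood at 0.919 ± 0.295 CPM in BMP4 cells, against 6.00 ± 0.663 CPM in Activin+BMP4 cells, at 48 h, and at 11.5 ± 1.75 and 3.00 ± 0.383 CPM at 72 h. MESP2, a factor of the somite boundary, was at 6.64 ± 0.512 CPM in BMP4 cells, against 1.10 ± 0.181 CPM in Activin+BMP4 cells, at 96 h. Like DLL3, these 3 genes were called lower with BMP4 at 48 h and higher at 72 and 96 h. MESP1, MESP2 and DLL3 were also called lower with BMP4 at 36 h, where MESP1 held 3 counts over the BMP4 libraries and 168 over the Activin+BMP4 libraries, a ratio of 0.0179 with an exact 95% counting interval of 0.00365 to 0.0532. DLL1 was instead higher with BMP4 already at 36 and 48 h.

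**Figure D3:**
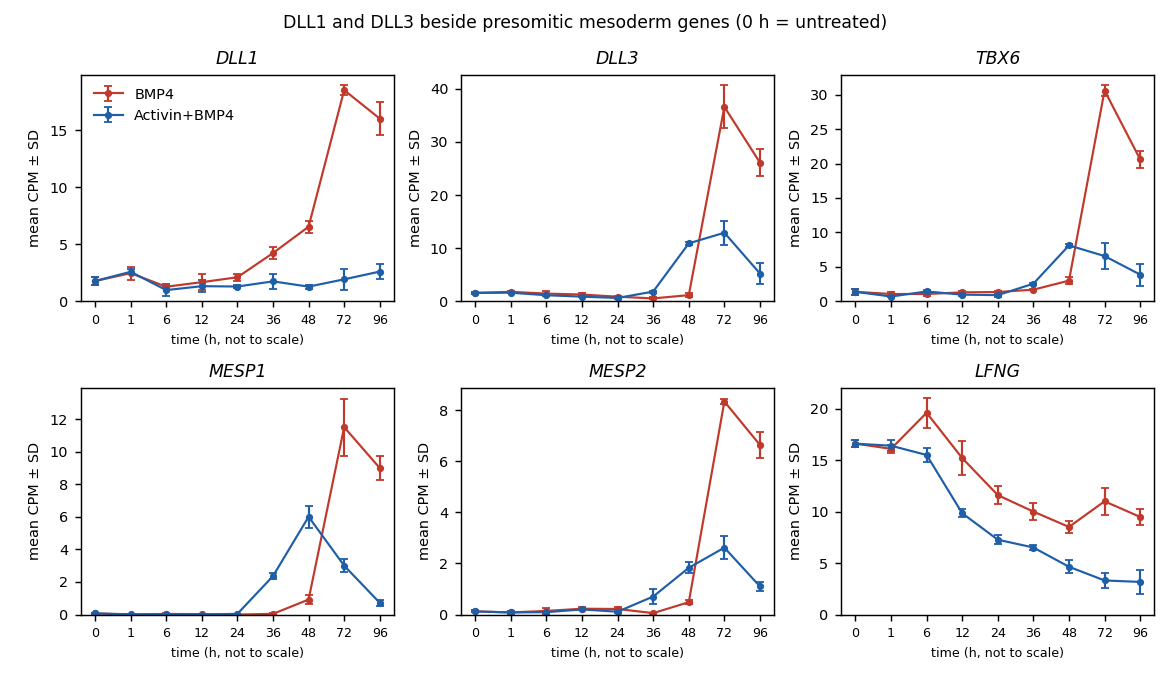
Levels of DLL1 and DLL3 beside presomitic mesoderm genes against hours of treatment for BMP4, Activin+BMP4 and untreated cells (CPM, 3 libraries per group). DLL3, TBX6 and MESP1 are higher with Activin+BMP4 at 48 h and higher with BMP4 at 72 h, whereas DLL1 is higher with BMP4 at both times.

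The presomitic list comprised TBX6, MESP1, MESP2, MSGN1, RIPPLY1 and RIPPLY2, whereas LFNG and HES7 were in other lists. All 6 genes of the presomitic list were called at 96 h (15.6% of all genes), 5 higher with BMP4 (7.62%) and 1 lower (7.95%). Their median log2 fold change was 2.5, beside 0.00 over all genes. The list was chosen with earlier results of these data known. The exception was RIPPLY1 at 0.0955 CPM in BMP4 cells, against 0.923 CPM in Activin+BMP4 cells. MSGN1 held 194 counts over the BMP4 libraries and 0 over the Activin+BMP4 libraries at 96 h, at least 65.6-fold higher when the Activin+BMP4 group is set to a floor of 3 counts in total. The list's median is the same with MSGN1 at that bound. RIPPLY1 and MSGN1 lie below the level set for named genes and were picked after their values were seen. Summed, the presomitic and nascent mesoderm markers (TBX6, MESP1, MESP2, MSGN1 and PDGFRA) reached 177 to 206 CPM with BMP4, all 5 above 1 CPM, and 35.0 to 46.4 CPM with Activin+BMP4 at 96 h, 3 of 5 above 1 CPM with MSGN1 at 0. At 48 h they summed to 10.3 to 12.2 CPM with BMP4 and 80.5 to 86.6 CPM with Activin+BMP4. Most of each sum was PDGFRA. It was at 155 CPM in BMP4 cells, against 36.2 CPM in Activin+BMP4 cells, at 96 h, and at 6.76 against 66.7 CPM at 48 h. The part of presomitic and nascent mesoderm cells in the DLL1 and DLL3 levels was not tested.

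At 96 h, other cell type lists differed between the conditions beside HES1, HEY1, HEY2 and JAG1. The 6 amnion markers, all above 1 CPM with BMP4, summed to 1220 to 1420 CPM in BMP4 libraries, against 41.6 to 60.5 CPM in Activin+BMP4 libraries. HAND1 and GABRP made up most of the BMP4 sum, at 576 and 526 CPM, against 7.54 and 1.94 CPM in Activin+BMP4 cells. The 5 lateral plate and extraembryonic mesoderm markers, all above 1 CPM with BMP4, summed to 258 to 290 CPM in BMP4 libraries, against 34.6 to 37.0 CPM in Activin+BMP4 libraries. Most of that sum was the BMP4 transcript itself, at 182 CPM in BMP4 cells, against 28.9 CPM in Activin+BMP4 cells. Of the rest, HAND2, FOXF1, PRRX1 and TBX20 were at 26.2, 30.4, 27.7 and 9.74 CPM in BMP4 cells, against 0.165, 0.346, 0.0112 and 6.07 CPM in Activin+BMP4 cells. The 5 definitive endoderm markers summed to 66.1 to 78.9 CPM in BMP4 libraries, against 2750 to 3660 CPM in Activin+BMP4 libraries, all above 1 CPM in both. CER1 made up most of each endoderm sum, at 49.4 CPM in BMP4 cells, against 2920 CPM in Activin+BMP4 cells, and every other marker of that list was also lower with BMP4. The 6 neural ectoderm markers summed to 611 to 748 CPM in BMP4 libraries, against 240 to 318 CPM in Activin+BMP4 libraries, with 2 above 1 CPM in each. That sum was mainly NES (690 CPM in BMP4 cells, against 247 CPM in Activin+BMP4 cells), whereas PAX6 was at 10.9 CPM in BMP4 cells, against 39.7 CPM in Activin+BMP4 cells, and SOX1 at 0.0677 CPM, against 0.0116 CPM. With Activin+BMP4, 4 of 6 amnion and 2 of 5 lateral plate markers were above 1 CPM, and no marker of these 4 lists was at 0 in either group. Their part in the levels of the Notch genes was not tested.

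Of 52 further pathway genes, 50 passed the filter (not HES2 or HES5), and 48 of their 400 comparisons between the conditions were called, beside 5.75% of those of all genes. Of these calls, in 20 genes, 29 were higher with BMP4 (2.98% of all) and 19 lower (2.77%). At 96 h 15 of 50 were called, beside 15.6% of all genes, 12 higher (7.62% of all genes) and 3 lower (7.95%), and the median log2 fold change was -0.03, beside 0.00 over all genes. By role, the presomitic list gave 18 of 48 comparisons, and the other HES and HEY genes with NRARP gave 11 of 48. The nuclear complex gave 8 of 80 and the other receptors and ligands 5 of 32. Ligand endocytosis and trafficking gave 3 of 88 (3.41%), receptor glycosylation 2 of 40 (5%) and receptor cleavage 1 of 64 (1.56%). The last 3 shares lie at or below the 5.75% of all genes, and no difference between roles was tested.

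In the nuclear complex, RBPJ was not called between the conditions, whereas 3 Mastermind-like genes were. MAML3, a co-activator, was at 7.97 ± 0.945 CPM in BMP4 cells, against 21.5 ± 0.83 CPM in Activin+BMP4 cells, at 24 h, a log2 fold change of -1.43 ± 0.09. MAML2, another co-activator, was at 34.7 ± 1.74 CPM in BMP4 cells, against 7.85 ± 1.36 CPM in Activin+BMP4 cells, at 96 h (2.14 ± 0.10). MAMLD1, a Mastermind-like domain protein, was at 0.307 ± 0.166 CPM in BMP4 cells, against 10.5 ± 0.988 CPM in Activin+BMP4 cells, at 48 h (-5.06 ± 0.31). In each case the libraries of the 2 conditions did not overlap.

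LFNG, a fucose-modifying glycosyltransferase that tunes which ligands a receptor answers to and a gene of the segmentation clock, was at 9.48 ± 0.795 CPM in BMP4 cells, against 3.17 ± 1.17 CPM in Activin+BMP4 cells, at 96 h, a log2 fold change of 1.58 ± 0.14. It was the only called gene of 5 in receptor glycosylation. DLK1, a secreted and membrane-bound relative of the Delta-like ligands that lacks their receptor-binding domain, was at 30.1 ± 9.05 CPM in BMP4 cells, against 4.02 ± 0.599 CPM in Activin+BMP4 cells (2.90 ± 0.36). APH1B, a subunit of the gamma-secretase that cleaves the receptor, was at 14.1 ± 1.52 CPM in BMP4 cells, against 28.7 ± 1.57 CPM in Activin+BMP4 cells (-1.02 ± 0.06), the only called gene of 8 in receptor cleavage.

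Among the other HES-family genes, HES6, which in mouse opposes HES1, went against the direction of HES1, HEY1 and HEY2 at 96 h. It was at 6.35 ± 0.427 CPM in BMP4 cells, against 14.2 ± 1.01 CPM in Activin+BMP4 cells (log2 fold change -1.16 ± 0.11). Of the same list, HES4, HEYL and NRARP were not called between the conditions at 96 h. Whether Notch regulates HES6 or HES3 here was not tested. HES3 was called higher with BMP4 at 48 h, at 6.6 ± 0.115 CPM in BMP4 cells, against 1.60 ± 0.159 CPM in Activin+BMP4 cells (2.04 ± 0.23), and in all 6 comparisons from 12 h on. For the genes named from these lists, edgeR's quasi-likelihood adjusted p ran between 3.34e-09 for DLK1 and 1.36e-22 for MAML2, at whichever of 24, 48 and 96 h had the largest called difference.

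**Figure D4:**
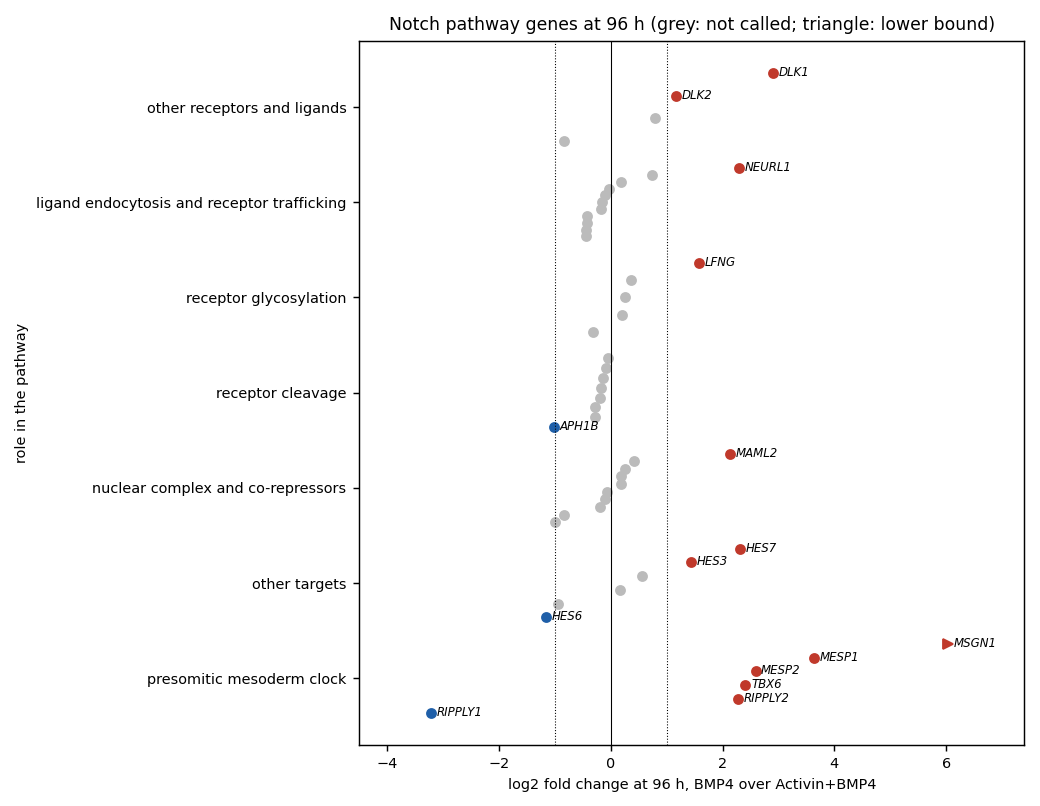
Log2 fold change of BMP4 over Activin+BMP4 at 96 h (horizontal axis) for the 50 tested genes of the other pathway lists, by role (vertical axis), with called genes in colour and named, uncalled genes in grey and dotted lines at 2-fold. MSGN1, at 0 counts with Activin+BMP4, is drawn as a triangle at its lower bound of 6.04. Of the receptor cleavage and trafficking genes, only APH1B and NEURL1 were called. DLK2, NEURL1, HES7 and RIPPLY2 were called below the level set for naming and are labelled in the plot only. Role names are list labels only.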

How the data were processed

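The deposited table holds whole-number counts per gene, in a unit taken from its values. Tools named in the submitters' processing notes, without their roles, are RSEM 1.3.0, STAR 2.5.2a and cutadapt 1.5, with the build GRCh38, and per the labels' protocols libraries were made from total RNA with a KAPA RNA HyperPrep kit. Annotation release, strandedness and whether the authors deposited read counts or rounded RSEM estimates are not given in the sources used here, so reads of overlapping genes could be shared. Symbols and exon lengths came from GENCODE 29.

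One mean per group was fitted to all 51 libraries with edgeR 4.0.16 (R 4.3.3), with TMM factors, filterByExpr (minimum count 10) and the quasi-likelihood F test. P-values were Benjamini-Hochberg adjusted over the 19603 tested genes of each comparison, with thresholds of adjusted p 0.05 and 2-fold. The SE is the log2 fold change divided by the square root of F. The fit was tested on simulated data with the depth of the 96 h comparison over 19603 genes. It called 98.5% of 67 genes changed 3-fold, 100% of 66 changed 8-fold and 1.49% of 67 changed 1.5-fold. The simulation gave every gene the same dispersion (0.00349), and its changed genes averaged at least 1 CPM. It therefore does not cover genes as low as DLL4 or genes that vary more between libraries. A library stood apart where its distance to both others was at least 3 times the distance between those.

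Members and lists were chosen with earlier results of these data known. Named pathway genes are those called at 24, 48 or 96 h that reach 5 CPM in the higher group, at most 4 per list. Genes of like pattern are the 3 with the highest Pearson r for members spanning at least 4-fold (log2 of CPM with a prior count of 1), among genes reaching 10 CPM. No pairing by replicate number was seen (0 of 72 same-numbered pairs had a correlation of deviations over 0.1). This cannot show whether samples of a number shared a culture or batch. Alternatives were RLE factors, no factors, no filter, a filter of 1 CPM in 3 libraries, DESeq2 1.42.0, only the compared groups, a replicate block, no fold threshold, and leaving out each library (retesting the comparisons of its group).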

Additional observations from a re-analysis of the deposited data

Results flagged for a closer look

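The size of the BMP4 to Activin+BMP4 difference changed between 24 and 96 h for 5 of the 10 genes, by a test of the change itself (edgeR's quasi-likelihood test of the interaction). The change in log2 fold change was 4.70 ± 0.21 for HEY1 (adjusted p = 2.09e-22), 2.57 ± 0.11 for HEY2 (3.73e-22), 1.92 ± 0.39 for DLL1 (7.75e-05), 1.85 ± 0.39 for DLL3 (1.12e-04) and 1.13 ± 0.14 for HES1 (1.03e-08). HEY1 and HEY2 were lower with BMP4 at 24 h and higher at 96 h, in all 3 libraries of each group at both times. For HES1, DLL1 and DLL3 the 24 h difference did not pass (log2 fold changes of 0.13, 0.70 and 0.46).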

How the results depend on the processing

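Of 58 called fold changes, 54 stayed called under every alternative that gave a value, and none reversed. Lost under some were HEY1 (Activin+BMP4 over untreated, 1 h), whose log2 fold change sat at the threshold, and DLL4 (each condition over untreated, 72 h). The low counts of DLL4 limit precision, and DLL4 at 6 h (Activin+BMP4 over untreated) had no adjusted p in DESeq2. The stricter filter removed DLL4. With no fold threshold, which by construction calls more, the counts between the conditions for 6, 12, 24, 36, 48, 72 and 96 h were 3, 4, 5, 6, 9, 9 and 9. Counted with DLL4, they were 49 of 80 for BMP4 and 47 of 80 for Activin+BMP4 over untreated (24 and 18 with the threshold). They were 28 of 70 for BMP4 steps, 32 of 70 for Activin+BMP4 steps and 141 of 400 for the other pathway genes. With no fold threshold the share of all genes between the conditions was 0.0102% at 1 h and 54.4% at 96 h. That share is not given for untreated and step comparisons, so these counts are no result about the genes. Without the libraries that stood apart, an alternative chosen after seeing the data, the 12 h count was 2, with HEY2 gained, and the 96 h count 6, with JAG1 gained (log2 fold change 1.09). Over untreated, Activin+BMP4 then gave 20 calls, with DLL4 (-2.64) and HEY2 (-1.08) gained at 96 h. Leaving out each library gave 1 to 2 at 12 h, 2 to 3 at 36 h, 5 to 6 at 96 h, 23 to 25 for BMP4 and 16 to 20 for Activin+BMP4 over untreated, 5 to 7 and 7 to 8 for their steps, 46 to 50 for the other pathway genes, and the main count elsewhere (0 for 1 and 6 h, 1 for 24 h, 4 for 48 h, 3 for 72 h, 5 for the change between 24 and 96 h). The labels do not say what samples of a number share. With replicate number as a block the 96 h count was 5 and no member call changed. Without scaling factors the median of all genes shifted by at most 0.055 (log2).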
